A study of Mus musculus with 36 samples.

Results

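Chronic morphine was set against acute morphine in the striatum of one inbred mouse strain, 129P3/J, on 6 of the 36 Affymetrix whole-genome mouse arrays of the series: 3 arrays of chronically treated mice and 3 of acutely treated mice. All were adult males of 8 to 10 weeks, and the RNA on each array came from the rostral caudate/putamen and nucleus accumbens of 3 mice, which makes 9 mice in each group and limits the measured spread to that between pools. The acute group was given saline for 4 days and then a single subcutaneous dose of 20 mg/kg morphine. The chronic group was given morphine 3 times a day at 10, 20, 40 and 40 mg/kg on days 1 to 4 and once more at 40 mg/kg on day 5. The striatum was taken 4 hours after the final injection in both groups. The saline group of 129P3/J, injected with saline on the same schedule, has 3 arrays that are given beside the others as the level without morphine. The last dose and the number of earlier doses therefore differ together between the groups, and their parts cannot be told apart. Every probe set other than a control that had a log2 intensity above 6.64 (an intensity of 100) on at least 3 of the 6 arrays was a member, which gave 25778 of 45037 probe sets (57.2%). Of these, 22394 were above that level on all 6 arrays, 2444 on 4 or 5 and 940 on exactly 3. The 940 just inside had a median log2 intensity of 6.64, against 6.50 for the 1015 probe sets that were above it on 2 arrays and were not tested. There were 134 members that passed through one group alone, 65 through the chronic and 69 through the acute arrays, so that a difference between the groups was partly set by the filter in them. Exactly one gene symbol was paired with 21727 members, which together stand for 12795 genes; for each gene the probe set of the highest mean intensity over the 36 arrays was used.

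Morphine acts mainly through the mu opioid receptor, a G protein-coupled receptor that inhibits adenylyl cyclase and opens inwardly rectifying potassium channels. The striatum, the main input nucleus of the basal ganglia, carries this receptor on part of its medium spiny neurons, the GABAergic projection cells that receive the dopamine input from the midbrain. Morphine also activates the hypothalamic-pituitary-adrenal axis in rodents, and the released corticosterone acts on the brain through the glucocorticoid receptor, which turns on genes such as Fkbp5 in neurons and glia. With repeated dosing, tolerance to several effects of morphine develops, and comparing chronic with acute treatment asks which transcripts differ between the first exposure and the repeated one.

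The striatal origin of the 6 arrays was borne out by their markers. Penk and Tac1, the neuropeptide precursors of the indirect and the direct pathway neurons, had log2 intensities of 12.06 to 12.25 and 11.46 to 11.67, and Drd1 and Drd2, the dopamine receptors of the same cells, ranged from 10.25 to 10.54 and from 9.95 to 10.27. Adora2a is not in the probe annotation used here. Array to array correlations of log2 intensity over the members were 0.971 to 0.982 among the acute arrays and 0.963 to 0.976 among the chronic arrays, and between acute and chronic arrays they ran from 0.932 (acute 1 with chronic 1) to 0.989 (acute 3 with chronic 2). The highest value between the groups thus exceeded every value within them, and chronic 1 had the lowest correlations with the other arrays. Deviations from the group mean were shared with arrays of other strains that had the same treatment and number: the mean r was 0.226 over 18 pairs, 15 of them above 0. The hybridization control spikes were brighter on the chronic arrays (scores of 0.350, 0.0818 and 0.270) than on acute 1 and acute 3 (-0.427 and -0.497). Acute 2 had 0.223. In the other strains acute 1 and 3 were also low: -0.389 and -0.415 in C57BL/6J, -0.275 and -0.496 in DBA/2J, -0.321 and -0.449 in SWR/J. Their chronic arrays ran from -0.105 to 0.342, and acute 2 was at 0.0851, 0.662 and 0.191. The score thus went partly with treatment in all 4 strains. The part of these differences in the results below was not tested beyond the fits with that score as a covariate.

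A single probe set passed the test between chronic and acute morphine: 1433741_at, which no gene is paired with in the annotation used here. Its log2 intensities were 7.49, 7.19 and 7.39 on acute arrays 1 to 3 and 6.30, 6.76 and 6.48 on chronic arrays 1 to 3, with 7.20, 7.22 and 7.09 on the saline arrays. All chronic arrays lay below all acute and all saline arrays, and 2 of the 3 were under the level of the filter. The probe set fell by 0.84 on the log2 scale (SE 0.13, n = 3 pools against 3), which is 1.79-fold, with an adjusted p of 0.0213 in limma's moderated test. This was 0.00388% of the members tested. The call was lost when acute 1, acute 3, chronic 1 or chronic 3 was left out, with adjusted p-values of 0.480, 0.251, 0.372 and 0.117, and when the spread was taken from the 6 arrays alone (0.566).

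At an unadjusted p under 0.05 there were 2268 members (8.80%), 1015 higher (3.94%) and 1253 lower (4.86%) in the chronic group; this count is given as background and calls no gene. The groups did not overlap for 1321 members with all chronic arrays above all acute arrays (5.12%) and for 2388 with all chronic arrays below them (9.26%). Counted as genes, 391 of 12795 were higher (3.06%) and 727 lower (5.68%) at the unadjusted threshold, 8.74% in all, and 526 (4.11%) and 1448 (11.3%) did not overlap; these are the shares against which the gene lists are read. Without acute 1 the unadjusted count was 1168 members, and without chronic 1 it was 1003. With the hybridization control score as a covariate it was 1381 members, and as genes 236 were higher and 428 lower. The median log2 difference over all members was 0.0026 and the median SE 0.146, and 53 members differed by more than 1 on the log2 scale, 17 higher and 36 lower in the chronic group.

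**Figure D1:**
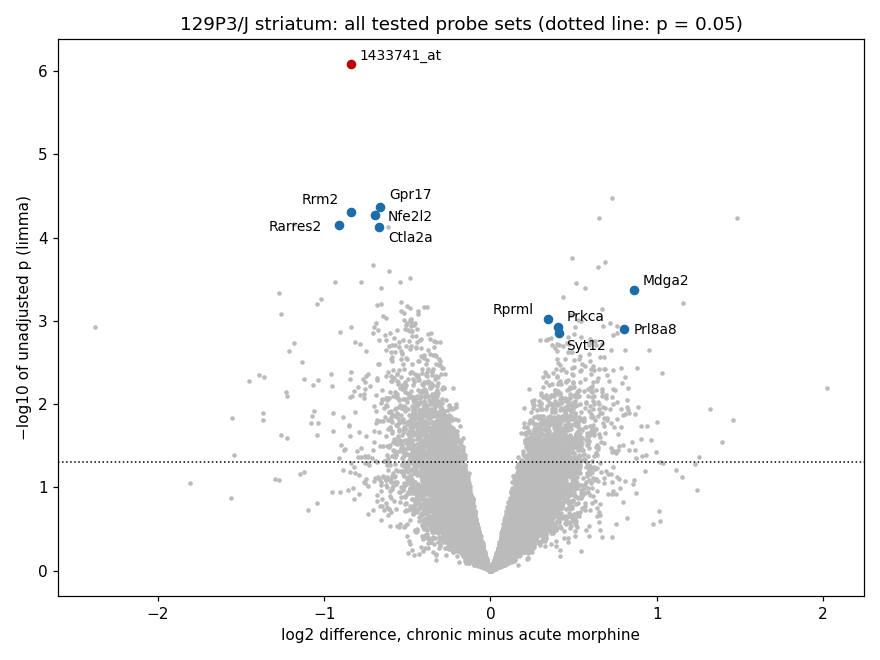
Log2 difference (chronic minus acute morphine, horizontal axis) against minus log10 of the unadjusted limma p (vertical axis) for the 25778 tested probe sets of 129P3/J striatum. The probe set 1433741_at, with a log2 difference of -0.84, is the only one past the adjusted threshold (red); the 5 named genes of the smallest p in each direction, each by its brightest probe set, are in blue and did not pass.

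No named gene passed, so the genes of the smallest p in each direction are given as values. Among those lower in the chronic group, Gpr17, a receptor of committed oligodendrocyte precursors, had log2 intensities of 9.15, 9.35 and 9.08 on the acute and 8.50, 8.42 and 8.66 on the chronic arrays, with 9.00 to 9.26 on saline (log2 difference -0.66, SE 0.14, adjusted p = 0.175). The acute arrays were within the range of the saline arrays or next to it, and the chronic arrays lay apart from both. Rrm2, the small subunit of the ribonucleotide reductase that supplies deoxynucleotides for DNA synthesis, read 6.98, 6.83 and 6.83 on the acute arrays, 5.83, 6.25 and 6.03 on the chronic arrays and 6.34 to 6.44 on saline (-0.84, SE 0.18, adjusted p = 0.175). It was above the filter on the acute arrays alone, and the saline level fell between the treated groups. Nfe2l2, the transcription factor that drives antioxidant enzymes, gave 8.71, 8.51 and 8.63 against 7.71, 8.22 and 7.83 (-0.69, SE 0.15, adjusted p = 0.175), and its saline arrays, at 8.51, 8.38 and 8.20, filled the space between the groups.

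Rarres2, which encodes the secreted chemoattractant chemerin, had 7.00, 7.44 and 6.97 on the acute and 5.76, 6.25 and 6.68 on the chronic arrays (-0.91, SE 0.20, adjusted p = 0.175). This was the widest mean gap of the 5, but also the widest scatter within the chronic group (SD 0.456), and its saline arrays (6.96 to 7.22) lay among the acute ones. Ctla2a, a cysteine protease inhibitor related to the cathepsin propeptide, showed a different order: 7.32, 7.61 and 7.61 on the acute arrays stood above both the chronic arrays (6.59, 7.13 and 6.80) and the saline arrays (6.77 to 7.15). Its log2 difference was -0.67 (SE 0.14, adjusted p = 0.175), while chronic minus saline was -0.08. Rarres2 is also on the list of choroid plexus and ependymal genes, whose levels are given below.

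In the other direction the smallest p belonged to Mdga2, a membrane-anchored protein that binds neuroligins at synapses, with 8.40, 8.67 and 8.30 on the acute and 9.63, 8.95 and 9.38 on the chronic arrays (0.86, SE 0.22, adjusted p = 0.411). Its saline arrays, at 8.78, 8.77 and 9.34, overlapped the chronic arrays and lay above the acute ones, and a second, dimmer probe set of the gene gave -0.10. Prl8a8, a member of the placental prolactin family, read 6.74, 6.60 and 6.79 against 7.69, 7.06 and 7.79 (0.80, SE 0.22, adjusted p = 0.411), with saline values of 6.80 to 7.60, from the top of the acute group into the chronic group. For Mdga2 and Prl8a8 alike, chronic 2 was the chronic array nearest to the acute ones. Prkca, which encodes protein kinase C alpha, had 9.86, 10.31 and 10.27 against 10.62, 10.52 and 10.51 (0.40, SE 0.11, adjusted p = 0.411); without acute 1 the difference was 0.26, and the second probe set gave -0.14. Syt12, a synaptotagmin of synaptic vesicles, gave 6.91, 7.15 and 7.00 against 7.46, 7.43 and 7.40 (0.41, SE 0.12), and Rprml gave 9.26, 9.52 and 9.43 against 9.86, 9.70 and 9.69 (0.35, SE 0.09), both with an adjusted p of 0.411. In these last 2 genes the chronic arrays were tight and lay above every saline array as well.

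**Figure D2:**
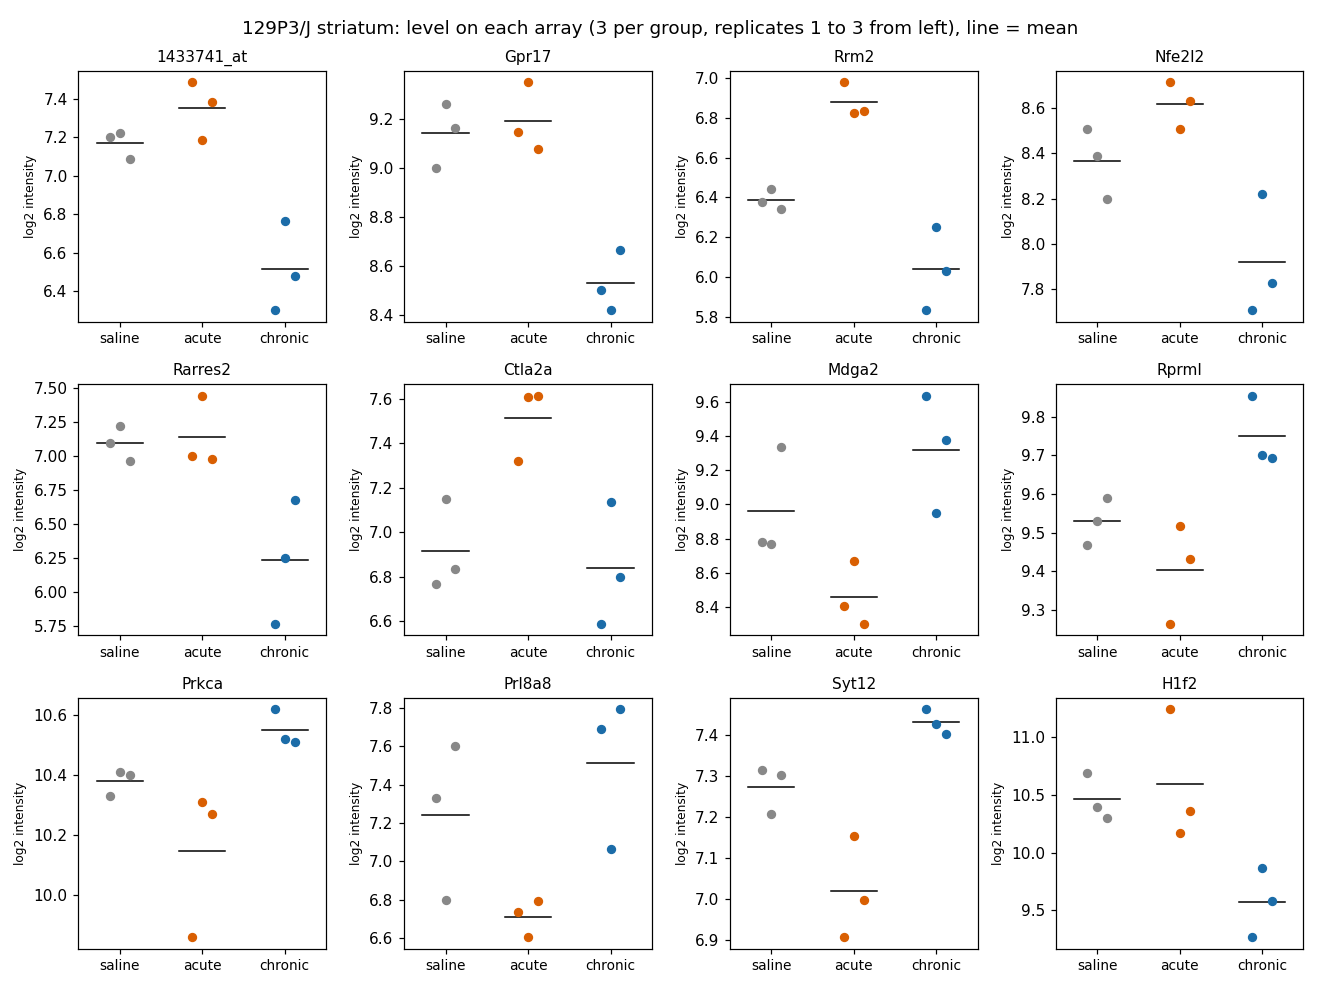
Log2 intensity (vertical axes, separate scale per panel) on the 3 saline, 3 acute and 3 chronic arrays of 129P3/J for 1433741_at, the 5 genes of smallest p in each direction and H1f2; each point is an array and each line a group mean. In every panel the chronic points do not overlap the acute points, as for Gpr17 (chronic 8.42 to 8.66, acute 9.08 to 9.35).

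Histone genes gave the largest named difference. H1f2, a replication-dependent linker histone H1, had 11.24, 10.17 and 10.36 on the acute arrays, 9.27, 9.87 and 9.58 on the chronic arrays and 10.69, 10.39 and 10.30 on saline, a log2 difference of -1.02 (SE 0.26, 2.03-fold, adjusted p = 0.411). The acute and saline arrays overlapped and every chronic array lay below both; acute 1 was the highest of the 9, and without it the difference was -0.69. A second probe set of H1f2 read 9.50, 9.43 and 9.38 against 8.16, 8.96 and 8.85 (-0.78, SE 0.19), while the third and dimmest gave 0.02. H2bc22, a core histone H2B gene of the same replication-dependent class, had 9.72, 9.74 and 9.60 on the acute and 9.05, 9.24 and 9.16 on the chronic arrays (-0.54, SE 0.14, adjusted p = 0.411), with 9.17 to 9.76 on saline. Because histone genes of one class are nearly identical in sequence, these probe sets may bind the transcripts of several of them. Of the 26 genes on the histone list, 10 had a tested probe set of their own, and 2 were lower and 1, Macroh2a2, higher at an unadjusted p under 0.05, with a median of 0.0013. Counting instead every tested probe set whose symbols are all histone genes, macroH2A left out, which was done after the values were seen, gave 26 probe sets, of which 9 were lower and 0 higher at the unadjusted threshold, 11 had all chronic arrays below all acute arrays, and the median difference was -0.23. Of all tested probe sets 4.86% were lower and 3.94% higher at that threshold, and 9.26% had all chronic arrays below all acute arrays. Leaving out macroH2A dropped Macroh2a2, the 1 higher gene of the list, so the 0 higher follows partly from that choice. None of the 26 passed the adjusted threshold.

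The promoters of H1f2, H2bc22 and Rrm2, genes whose transcription is tied to DNA replication, are shown because all 3 had every chronic array below every acute array. The 3 were thus picked on this outcome, which 11.3% of all genes had. Rrm2 was above the filter on the acute arrays alone, so that the filter partly set its direction. They are the RefSeq sequences of the 300 bases from 250 before to 50 after the transcript start in build GRCm38.p6, 5′ to 3′ on the strand of the gene, with the CCAAT box, the site of the factor NF-Y, in capitals in either orientation (CCAAT or ATTGG).
H1f2 (chr13:23738557-23738856, plus strand): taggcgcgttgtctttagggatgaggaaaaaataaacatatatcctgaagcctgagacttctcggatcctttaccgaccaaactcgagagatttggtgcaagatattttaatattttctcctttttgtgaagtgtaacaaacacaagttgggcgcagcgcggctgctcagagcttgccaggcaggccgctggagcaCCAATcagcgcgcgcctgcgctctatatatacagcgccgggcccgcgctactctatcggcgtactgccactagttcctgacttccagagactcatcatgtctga
H2bc22 (chr13:21787238-21787537, plus strand): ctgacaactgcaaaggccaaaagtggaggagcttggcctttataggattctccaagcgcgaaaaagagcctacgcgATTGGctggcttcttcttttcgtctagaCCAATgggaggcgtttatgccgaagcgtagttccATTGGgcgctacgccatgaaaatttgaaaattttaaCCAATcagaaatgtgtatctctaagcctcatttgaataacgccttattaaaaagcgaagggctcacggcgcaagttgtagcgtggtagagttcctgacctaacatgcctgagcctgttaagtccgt
Rrm2 (chr12:24708004-24708303, plus strand): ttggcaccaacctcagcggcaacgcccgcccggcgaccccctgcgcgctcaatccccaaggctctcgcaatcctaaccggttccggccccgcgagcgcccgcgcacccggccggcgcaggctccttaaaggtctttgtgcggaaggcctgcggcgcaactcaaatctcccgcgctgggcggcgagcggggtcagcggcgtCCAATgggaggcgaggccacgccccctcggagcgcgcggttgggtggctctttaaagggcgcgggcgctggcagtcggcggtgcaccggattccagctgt

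H1f2 and Rrm2 each held 1 CCAAT box, starting 54 and 50 bases before the transcript start, and H2bc22 held 4, the nearest 76 bases before it. The same letters occur in either orientation in 37.4% of all 32851 promoters of this length, so their presence is a description of these windows. The exact letters TATAAA were found in H2bc22 alone (13.6% of all promoters), in reverse orientation and 212 bases before the transcript start. The H1f2 window holds TATATATA between its CCAAT box and the transcript start, which this search did not count. The E2F-type sequence TTTCGCGC (0.323%) was also in H2bc22 alone, in reverse orientation and 195 bases before the start. Neither ATTTGCAT, the octamer (1.74%), nor the histone H1 sequence AAACACAAA (0.767%) nor TTTGGCGC (0.514%) was in any of the 3 windows. All were searched on both strands as exact letters, so that near matches were not counted. The H1f2 window holds AAACACAAG, which differs from the searched histone H1 sequence only in its last letter.

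None of the genes that passed the test against saline passed it between chronic and acute treatment. Acute morphine against saline had 4 probe sets past the threshold (0.0155%, with 3.45% at an unadjusted p under 0.05), those of Fkbp5, Cdkn1a, Camk1g and Smim3, and chronic morphine against saline 1 (0.00388%, with 4.51%), that of Fkbp5; both contrasts share arrays with that between chronic and acute. Fkbp5, whose product binds Hsp90 in the glucocorticoid receptor complex, read 9.97, 9.89 and 9.90 on the acute arrays, 9.74, 9.76 and 9.84 on the chronic arrays and 8.87, 9.09 and 9.12 on saline. It rose over saline by 0.90 after acute morphine (adjusted p = 4.5e-06 in limma) and by 0.76 after chronic morphine (adjusted p = 0.000165), and the difference between the treatments was -0.14 (SE 0.09, 95% interval -0.33 to 0.05, adjusted p = 0.640). The treated arrays lay above every saline array, and the chronic arrays just below the acute ones. Cdkn1a, the cyclin-dependent kinase inhibitor p21, rose over saline after acute morphine (1.14, adjusted p = 0.0134) and stood at 8.71, 8.99 and 8.79 on the acute against 8.27, 8.56 and 8.58 on the chronic arrays (-0.36, SE 0.18, adjusted p = 0.583). Camk1g, a calcium/calmodulin-dependent kinase, was at 9.38, 9.29 and 9.29 on the acute and 9.39, 9.27 and 9.25 on the chronic arrays, a difference of -0.01 with an SE of 0.10. On saline Camk1g was at 8.67 to 8.80 and Cdkn1a at 7.42 to 7.98, so that every chronic array lay above every saline array in all 3 genes.

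Of the 30 tested genes on the list of glucocorticoid-responsive genes, 2 were higher and 4 lower in the chronic group at an unadjusted p under 0.05, none passed, and the median was -0.06 against -0.02 over all genes. The 2 higher ones were Cebpd, a C/EBP transcription factor (0.88, SE 0.28, adjusted p = 0.474, with -0.11 from its second probe set), and Arrdc2, an arrestin domain protein (0.73, SE 0.29). Cebpd was at 6.57, 6.60 and 7.33 on the acute and 8.10, 7.51 and 7.53 on the chronic arrays, but at 7.18 to 7.79 on saline, so that acute 1 and 2 lay below the saline level and chronic 2 and 3 within it. Arrdc2 had 6.89, 6.95 and 7.08 on the acute and 7.81, 7.57 and 7.71 on the chronic arrays, the latter above all saline arrays (6.33 to 7.23). The 4 lower ones were Angptl4 (-0.49), an inhibitor of lipoprotein lipase, the Krüppel-like factor Klf15 (-0.34), Rhpn2 (-0.32) and the metallothionein Mt1 (-0.22). Tsc22d3, or GILZ, had a difference of -0.23 (SE 0.15), Sgk1 one of 0.04, and Zbtb16 gave 0.51, -0.01 and 0.31 by its 3 probe sets, the direction thus depending on the probe set. Without acute 1 the counts were 2 higher and 1 lower, and without chronic 1 they were the same numbers. With all arrays, 3.06% of all genes were higher and 5.68% lower at the unadjusted threshold.

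Genes of fatty acid use leaned toward lower values in the chronic group. Of 33 tested members of the list of fatty acid oxidation, ketone and fuel switch genes, 27 were below 0, 2 were higher and 5 lower at the unadjusted threshold. All chronic arrays lay below all acute arrays in 9 and above them in 1, the median was -0.13, and none passed. Over all genes 3.06% were higher and 5.68% lower at that threshold, and 11.3% and 4.11% had all chronic arrays below or above all acute arrays. Crot, the peroxisomal carnitine octanoyltransferase, was at 8.38, 8.33 and 8.43 on the acute and 7.62, 7.91 and 8.16 on the chronic arrays (-0.48, SE 0.14, adjusted p = 0.411), against 7.79 to 8.33 on saline. The mitochondrial carnitine palmitoyltransferase Cpt2 was at 7.24, 6.96 and 7.10 against 6.59, 6.78 and 6.79 (-0.38, SE 0.12), and the acyl-CoA thioesterases Acot1 and Acot11 had differences of -0.45 and -0.44 (SE 0.16 each). In Crot and Cpt2 the chronic arrays lay within or below the saline range, and the acute arrays at its top or above it. Ppargc1a, the coactivator PGC-1alpha, pointed the other way in its brightest probe set (0.54, SE 0.24), with chronic 1 and 3 at 10.10 and 10.08 and chronic 2, at 9.40, inside the acute range; its other 4 probe sets gave -0.20 to -0.04. Pdk4, the kinase that shuts off pyruvate dehydrogenase, had a difference of -0.23 (SE 0.19), and its chronic arrays (7.77 to 8.07) overlapped its acute arrays (8.04 to 8.44). Among the 24 insulin, FoxO and starvation genes, 2 were higher (Gadd45b and Igf1r) and 5 lower (Cited2, Insr, Irs1, Klf15 and Txnip), with a median of -0.09. The fatty acid list had 0 higher and 5 lower without acute 1 and also without chronic 1. The insulin list had 1 higher and 1 lower without acute 1, and 0 and 3 without chronic 1. With the hybridization control score as a covariate the insulin list had 0 higher and 1 lower, and the fatty acid list 0 and 6.

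Of 24 heat shock and chaperone genes, which encode cytosolic and mitochondrial proteins, 19 were below 0 and 5 above. In 11 of them all chronic arrays lay below all acute arrays, a pattern seen in 11.3% of all genes, and in 0 they lay above, although 2 were lower at the unadjusted threshold (3 without acute 1, 1 without chronic 1): Dnajb1, an Hsp40 cochaperone (-0.33, SE 0.12), and Hspa4, of the Hsp110 family (-0.25, SE 0.11). Dnajb1 was at 9.64, 10.00 and 9.72 on the acute and 9.45, 9.45 and 9.47 on the chronic arrays, and its saline arrays (9.36 to 9.68) covered the chronic level. The stress-inducible Hspa1b gave -0.32, -0.53 and -0.43 by 3 probe sets, and the median of the list was -0.14. Manf, a secreted factor induced by endoplasmic reticulum stress, was at 9.46, 9.68 and 9.39 on the acute, 8.85, 9.11 and 9.08 on the chronic and 9.47 to 9.54 on the saline arrays (-0.50, SE 0.13, adjusted p = 0.411), so that the chronic arrays alone stood away. Atf6, a sensor of the same stress, was at 8.94, 9.11 and 9.26 on the acute and 9.42, 9.33 and 9.34 on the chronic arrays (0.26, SE 0.09, adjusted p = 0.501), and the 25 genes of the list had 1 of each direction at the unadjusted threshold and a median of -0.00073. Of 17 p53-responsive genes 0 were higher and 2 lower (Btg2 and Pmaip1), and of 18 hypoxia-responsive genes 0 and 2 (Ndrg1 and Pfkfb4), with medians of -0.10 and -0.05. Over all genes 5.68% were lower and 3.06% higher at that threshold, and 4.11% had all chronic arrays above all acute arrays. With the hybridization control score as a covariate the hypoxia list had 0 lower, the p53 list 2 and the heat shock list 3.

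The mu opioid receptor gene Oprm1 was at 8.30, 7.81 and 8.23 on the acute and 7.80, 7.72 and 7.67 on the chronic arrays, a log2 difference of -0.38 (SE 0.15, adjusted p = 0.518); acute 2 lay next to the highest chronic array, and the saline arrays ran from 7.66 to 8.36, over both groups. It was the 1 lower gene at the unadjusted threshold among 7 tested opioid peptide and receptor genes, with 0 higher; without acute 1 there was none, and without chronic 1 there were 2. Among the 41 genes of receptor effectors, 2 were higher and 0 lower at that threshold: Rgs7, a regulator that speeds the shut-off of Gi and Go proteins (0.42, SE 0.14, adjusted p = 0.476), and Prkar2b, a regulatory subunit of protein kinase A (0.29, SE 0.13). Of all genes 3.06% were higher and 5.68% lower at that threshold. Without acute 1 the effectors had 1 higher and 1 lower, and without chronic 1 they had 0 and 1. With the hybridization control score as a covariate the effectors had 2 and 0, and the opioid peptide and receptor list 0 and 0. Rgs7 was at 9.42, 9.57 and 9.51 on the acute and 10.13, 9.62 and 9.98 on the chronic arrays, chronic 2 being the one close to the acute group. The gamma 1 subunit of the GABA-A receptor, Gabrg1, was at 8.93, 8.90 and 8.84 against 8.32, 8.40 and 8.16 (-0.60, SE 0.18, adjusted p = 0.420) and gave -0.45 by its second probe set; with the kainate receptor Grik2 (-0.28) it made up the 2 lower of 27 GABA and glutamate receptor genes, and 0 were higher. Gabrg1 had much the same difference in SWR/J (-0.60), DBA/2J (-0.57) and C57BL/6J (-0.58). Arrays of the same treatment and number shared deviations across strains, so that these values are not independent of one another.

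The immediate early genes, which neuronal activity induces, were the function list whose median lay farthest above that of all genes. The median was 0.14, 23 of 29 genes were above 0 and 6 had all chronic arrays above all acute arrays, but 3 were higher and 1 lower at the unadjusted threshold and none passed. Over all genes 4.11% had all chronic arrays above all acute arrays, and 3.06% were higher and 5.68% lower at that threshold. Without chronic 1 the median was 0.08, with 1 higher and 1 lower, and without acute 1 it was 0.13, with 2 higher and 1 lower. Junb, a subunit of AP-1, was at 9.04, 9.02 and 9.18 on the acute, 10.06, 9.42 and 9.61 on the chronic and 9.30 to 9.57 on the saline arrays (0.61, SE 0.25, adjusted p = 0.523). Nptx2, a synaptic pentraxin, and Gadd45b, a stress-induced growth arrest gene, had differences of 0.33 (0.15 without acute 1) and 0.40, and the antiproliferative Btg2 one of -0.33. Nr4a2 gave 0.48, 0.41, 0.39 and 0.72 by 4 probe sets, with acute 1, at 6.87 in the brightest, below the other arrays. The clock repressors Bhlhe40 (0.36, SE 0.13) and Ciart (0.41, SE 0.18) were the 2 higher of 19 circadian genes, and 0 were lower. Cortical neuron markers also had a median above 0, with sums given below; their part in the immediate early values was not tested.

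Of 23 cholesterol synthesis genes, 4 were lower and 1 higher in the chronic group at the unadjusted threshold, and the median was -0.10. Over all genes 5.68% were lower and 3.06% higher at that threshold. Without acute 1 the list had 2 lower and 1 higher, and without chronic 1 it had 3 and 1. With the hybridization control score as a covariate the median was -0.03. The lower ones were the pathway enzymes Hmgcs1 (-0.25), Idi1 (-0.27), Sc5d (-0.35) and Lss (-0.95, SE 0.32), and the higher one was Srebf1 (0.40, SE 0.12, adjusted p = 0.420), a regulator of lipid synthesis. Lss, the lanosterol synthase, was at 9.35, 8.70 and 8.54 on the acute and 7.91, 7.37 and 8.45 on the chronic arrays, but its 2 other probe sets gave 0.22 and -0.17, so that no direction can be given for the gene. Sc5d was at 8.46, 8.61 and 8.60 on the acute and 8.18, 8.31 and 8.12 on the chronic arrays, with 8.27 to 8.45 on saline, and its groups did not overlap. The other function lists held few such genes: 1 lower and 0 higher of 47 respiratory chain genes (Cox7c), 1 lower of 5 metallothioneins (Mt1), 1 lower of 6 cold-inducible RNA-binding protein genes (Tra2a, with other probe sets of 0.43, 0.38 and 0.13), 1 higher of 9 thyroid hormone handling genes (Nrgn), 1 higher of 28 cytoskeleton genes (Mapt) and 0 of 21 ribosomal protein genes. Their medians lay between -0.10 and 0.02.

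Oligodendrocyte and myelin genes had more members with lower than with higher values on the chronic arrays. Of 34 tested genes 7 were lower (Bcas1, Cnp, Fa2h, Gjb1, Mal, Mobp and Ndrg1) and 1, Enpp6, higher at the unadjusted threshold, 10 had all chronic arrays below all acute arrays, and the median was -0.08. Over all genes 5.68% were lower and 3.06% higher at that threshold, and 11.3% had all chronic arrays below all acute arrays. Cnp, a myelin membrane enzyme, was at 11.63, 11.74 and 11.69 on the acute and 11.35, 11.52 and 11.36 on the chronic arrays (-0.27, SE 0.10), and the myelin protein Mobp had a difference of -0.30 (SE 0.11), whereas Mbp, the myelin basic protein, had one of 0.07 (SE 0.08). The summed intensity of the list was 47078 to 49123 on the acute arrays and 42590 to 46466 on the chronic arrays, with 45355 to 49299 on saline. In pooled tissue, fewer cells of a type and less RNA per cell cannot be told apart. For the 15 precursor genes, which include Gpr17, 2 were lower and 0 higher, the second being the matrix proteoglycan Vcan (-0.44, SE 0.14), and the sums were 8700 to 9301 and 7948 to 8425. Astrocyte genes had 5 lower (Acsbg1, Htra1, Ndrg2, Ntsr2 and S100b) and 0 higher of 28, 23 of them below 0, with sums of 44812 to 50064 and 42779 to 45006 and a saline range of 41852 to 47372 that covered the chronic one. Without chronic 1 the oligodendrocyte list had 1 lower gene and the astrocyte list 3. With the hybridization control score as a covariate each of these lists had 5 lower.

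Among the lists of other cells and regions, markers of tissue around the striatum had the medians farthest above and below that of all genes. The 18 tested cortical excitatory neuron genes had the highest median of all lists, 0.29, with 14 above 0, and their summed intensity was 12592, 16150 and 15547 on acute arrays 1 to 3, 14625, 16951 and 18845 on chronic arrays 1 to 3, and 11640 to 16140 on saline. Acute 1 and saline 1 were low, chronic 3 was high, and the groups overlapped; without acute 1 the median was 0.14. Neurod2 (0.62, SE 0.25) and Tbr1 (0.87, SE 0.39), both transcription factors of cortical projection neurons, were the 2 higher at the unadjusted threshold, and Slc17a7, the cortical vesicular glutamate transporter, was at 9.08, 10.15 and 10.06 against 10.01, 10.34 and 10.51. None of the tested defining cortical markers was near the floor. Genes of the septal area and ventral forebrain ran the other way: 13 of 15 were below 0, 5 were lower (Calb2, Dlk1, Ecel1, Ngb and Zic1) and 1 higher (Lhx2), against 5.68% and 3.06% of all genes. Their median was -0.27, and the sums were 8444, 8708 and 7514 on the acute and 7081, 6365 and 6581 on the chronic arrays, without overlap. With the hybridization control score as a covariate the septal median was -0.17, with 3 lower and 0 higher, and the cortical median was 0.19. The septal medians of the other strains, also below 0, are given below. Zic1, a transcription factor strong in the septum, was at 10.31, 10.36 and 9.92 on the acute and 10.25, 9.31 and 9.17 on the chronic arrays, so that chronic 1 resembled the acute group. Thalamus genes had 2 lower of 10 (Calb2, which is also on the septal and interneuron lists, and Plekhg1), with sums of 5123 to 5693 and 4462 to 4945. The part of these regional markers in the differences above was not tested.

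Choroid plexus and ependymal genes had 7 tested members, 2 of them lower (Rarres2 and Dynlrb2, the latter above the filter on the acute arrays alone, so that the filter partly set its direction), with sums of 2441 to 5427 on the acute, 2477 to 2909 on the chronic and 1810 to 6918 on the saline arrays. Most of that range came from Ttr, the transthyretin of the choroid plexus, which was at 10.90, 12.04 and 10.36 on the acute, 10.85, 10.50 and 10.54 on the chronic and 9.19, 12.22 and 12.50 on the saline arrays. The part of choroid plexus content in the Rarres2 value was not tested. Kl and Folr1 were below the filter. Medium spiny neuron genes summed to 52228 to 57869 on the acute and 54225 to 57440 on the chronic arrays, and 1 of 30, Foxp1, was higher (0.37, SE 0.12) and 0 were lower. Of the remaining cell lists, 1 of 17 interneuron genes was lower (Calb2), 2 of 20 microglia genes were higher and 1 lower, 1 of 20 endothelial genes was higher and 1 lower, 2 of 15 pericyte and vessel wall genes were lower and 0 of 3 red blood cell genes differed at the unadjusted threshold. Over all genes 5.68% were lower and 3.06% higher at that threshold, so that counts this small in short lists are given as background.

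**Figure D3:**
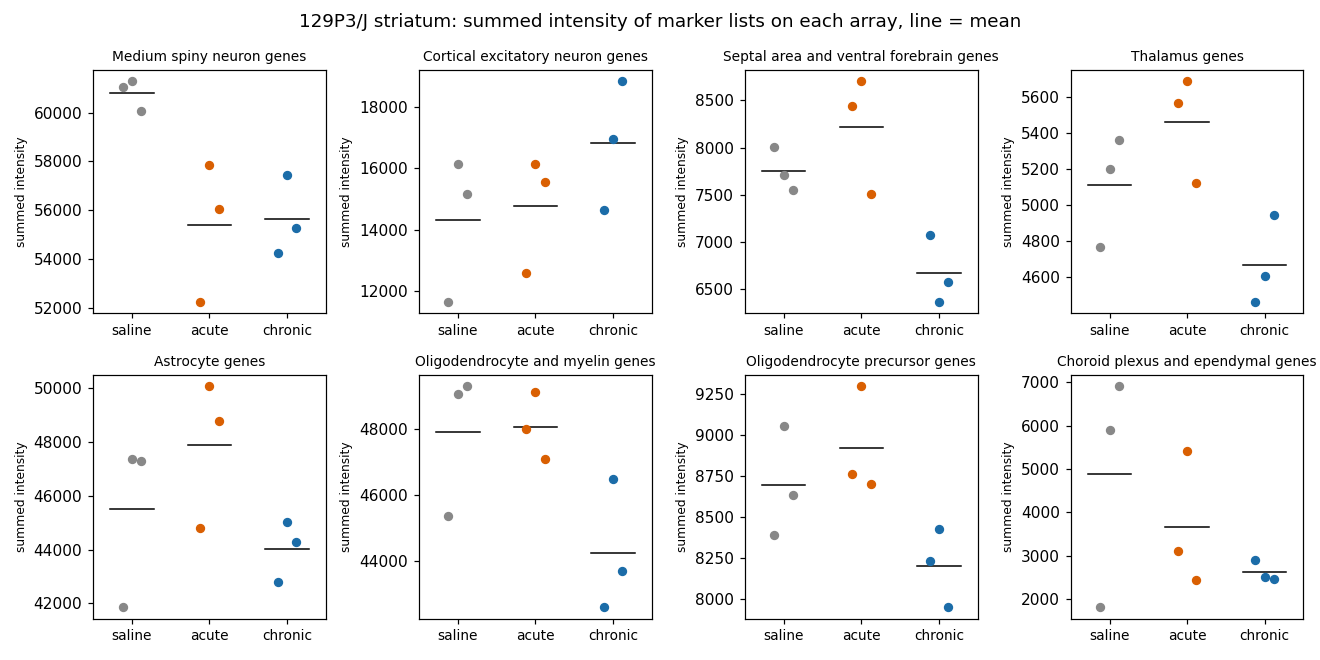
Summed intensity (vertical axes, which do not start at 0) of 8 marker lists on the 9 arrays of 129P3/J; each point is an array and each line a group mean. The chronic points lie below all acute points for the septal, thalamus, oligodendrocyte and oligodendrocyte precursor lists, and overlap them for the other 4.

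**Figure D4:**
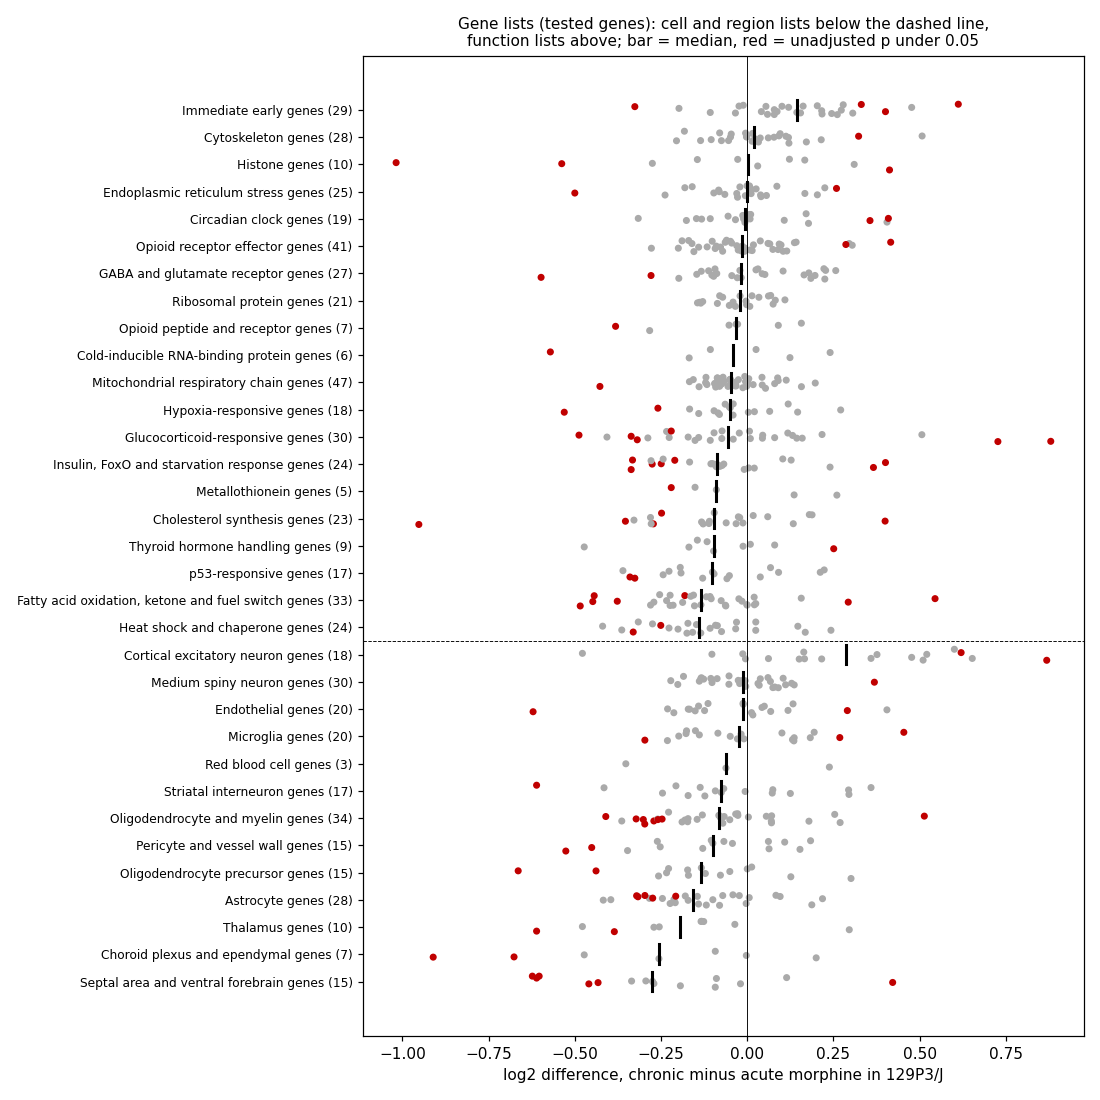
Log2 difference between chronic and acute morphine in 129P3/J (horizontal axis) for every tested gene of the 33 lists (rows, with the number tested); black bars are medians and red points genes at an unadjusted p under 0.05, none of which passed after adjustment. Cortical genes have the highest median (0.29) and septal genes the lowest (-0.27).

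Whether 129P3/J differed from the other strains was tested as the difference of its chronic minus acute value from the mean of the same value in the other 3 strains, each again 3 pools against 3: the inbred SWR/J, DBA/2J and C57BL/6J. No probe set passed (0 of 25778, 0%, in limma), and 1151 (4.47%) were at an unadjusted p under 0.05. In the same fit the chronic minus acute contrast itself called 340 probe sets in DBA/2J (1.32%), 58 in C57BL/6J (0.225%) and 0 in SWR/J (0%), with 23.3%, 15.6% and 15.1% of probe sets at the unadjusted threshold, against 8.80% in 129P3/J. All these counts are over the 25778 probe sets that passed the filter on the 129P3/J arrays, not on those of each strain. The probe set 1433741_at had differences of -0.84 in 129P3/J and -0.18, -0.23 and -0.22 in SWR/J, DBA/2J and C57BL/6J, the order kept below, and the test of the difference gave -0.63 (SE 0.15, adjusted p = 0.982). Gpr17 (-0.66 against -0.18, -0.31 and -0.16), Nfe2l2 (-0.69 against -0.30, -0.29 and -0.24) and Rarres2 (-0.91 against -0.11, -0.21 and -0.04) had the same sign in all 4 strains and the largest size in 129P3/J, while Mdga2 ran from 0.59 to 0.86 over the 4 strains, Prl8a8 from 0.64 to 0.80 and Ctla2a from -0.73 to -0.34. None of these genes passed the test of the difference (limma adjusted p of 0.982 to 0.999). They were picked for a small p in 129P3/J, a choice that favours a larger size in that strain. The septal list had medians of -0.25, -0.22 and -0.12 in the other strains, and 0.008 in 129P3/J relative to their arrays of the same treatment and number. Medians there were -0.17, -0.20 and -0.06 for the fatty acid list and -0.17, -0.17 and -0.08 for astrocytes. For the immediate early genes they were -0.04, -0.05 and 0.20, and over all genes -0.06, -0.07 and -0.005. Arrays of the same treatment and number shared deviations across strains, so that equal signs are not independent results. H1f2 was at -1.02 in 129P3/J and 0.04 in SWR/J, -0.19 in DBA/2J and -0.53 in C57BL/6J, and Oprm1 at -0.38 against 0.22, 0.41 and -0.02 in the same order. Neither gene passed the test of the difference, nor that between chronic and acute in 129P3/J, so that no strain contrast is read from them.

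The 3 genes of the smallest p in that test were Nudt5, an ADP-sugar hydrolase, Tmem196 and Usb1, an exonuclease that trims U6 RNA, each with an adjusted p of 0.982. Nudt5 was at 8.04, 7.65 and 7.71 on the acute and 7.14, 7.12 and 7.07 on the chronic arrays of 129P3/J (-0.69, SE 0.19), with differences of 0.68 in DBA/2J, 0.21 in SWR/J and -0.13 in C57BL/6J; the difference from their mean was -0.94 (SE 0.22), and -0.12 by its second probe set. Usb1 was at 8.83, 8.01 and 8.54 against 7.82, 7.79 and 7.75 (-0.67, SE 0.21), with 0.80 in DBA/2J, 0.20 in SWR/J and -0.08 in C57BL/6J, and in DBA/2J it rose past the threshold (limma adjusted p = 0.0494). Tmem196 was the reverse, at 7.23, 7.28 and 7.48 against 7.44, 7.64 and 8.07 (0.38, SE 0.14), with -0.05, -0.30 and -0.52 in the others and a difference from their mean of 0.67 (SE 0.16). For Nudt5 and Usb1 the chronic arrays of 129P3/J were tight and the acute arrays scattered, with acute 1 the highest in both.

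**Figure D5:**
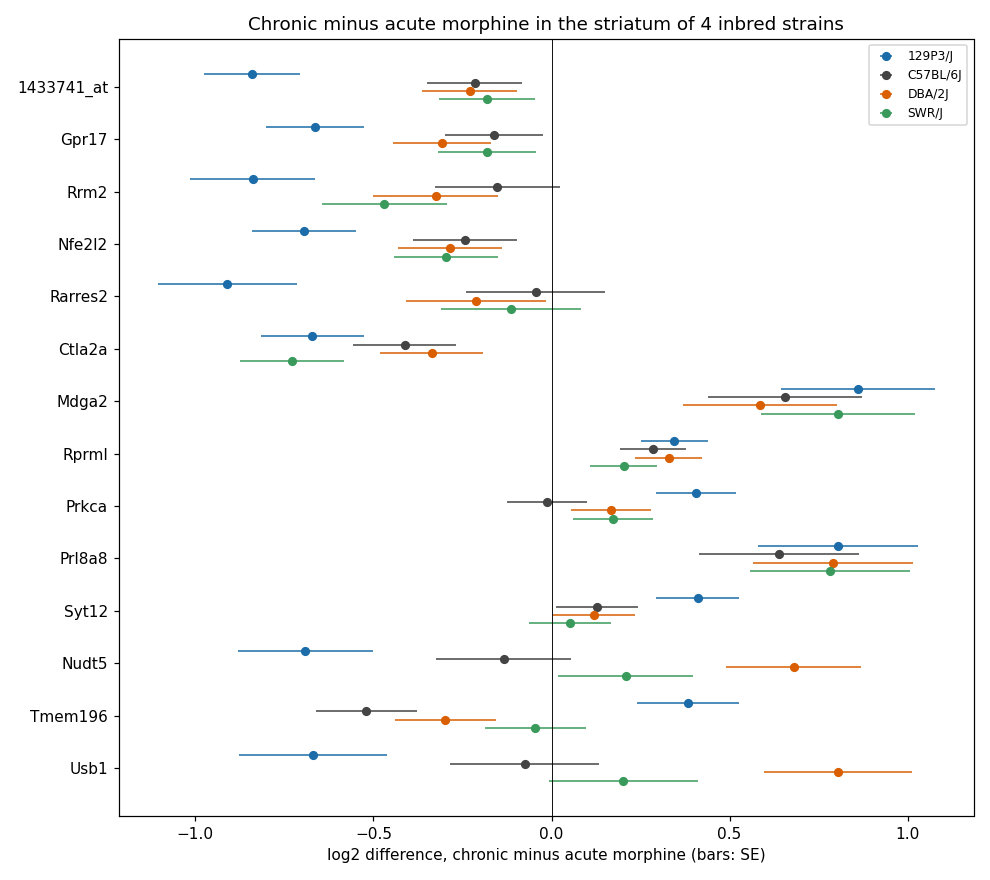
Log2 difference between chronic and acute morphine (horizontal axis, points with SE bars) in the 4 strains for 1433741_at, the 10 genes of smallest p in 129P3/J and the 3 genes of smallest p in the test against the other strains. Nudt5 is at -0.69 in 129P3/J and 0.68 in DBA/2J, while Prl8a8 is at 0.64 to 0.80 in all 4 strains.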

How the data were processed

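Striatal RNA pools were hybridized to 36 arrays, 3 for each of 12 groups. The authors computed model-based expression indices from perfect match and mismatch probes in dChip, with quantile normalization between arrays per their methods, and deposited them as linear intensities with a floor at 6.69; a shared scale of this kind cannot show a change common to all genes, and 2 missing values were set to the floor. Genome build and annotation version are not given in the sources used here. Log2 of the intensity was fitted with limma 3.58.1 in R 4.3.3 (12 group means, 24 residual degrees of freedom and 4.10 prior ones), with contrasts adjusted by the Benjamini-Hochberg method over 25778 probe sets at 0.05. The authors' MANOVA over 3 normalizations was not repeated, and no set test was run. The number of arrays limits the precision.

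Named genes were the 15 largest past the threshold in each direction (5 of smallest p where under 5 passed), up to 4 members of each function list past it (2 of largest difference where none passed), up to 2 of each cell list, 8 (or 3 of smallest p) of the difference between strains, 35 genes discussed in the study or in earlier work on these data (Mcam was not tested) and disagreeing probe sets; further list members at an unadjusted p under 0.05 and marker genes were named after the values were seen. Members and the 33 gene lists, of which 728 of 800 entries matched, were chosen with earlier results of these data known, and the study had picked several listed genes on these samples. Fits were tested on simulated data with independent noise on each array. Deviations shared between arrays of the same treatment and number were not simulated, so that this cannot show the error rates under such sharing. Alternatives covered the filter, pseudocount, normalization, source of the spread, replicate block, random block, covariate, moderation, array weights, threshold, probe set choice and the omission of arrays. Tables and figures used Python 3.11.15, pandas 2.3.3, numpy 2.4.6, scipy 1.17.1 and matplotlib 3.10.9.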

Additional observations from a re-analysis of the deposited data

How the results depend on the processing

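The single called probe set kept its sign under all 25 alternatives in which it was tested (-0.97 to -0.55) and its call under 11 (adjusted p 0.00705 to 0.817); it is not among the probe sets above the filter on all 6 arrays. The count of calls, 1, was 0 without a filter, with the filter on all 6 arrays, with 64 added before log2, with the spread from the 6 or the 9 arrays of 129P3/J, with the hybridization score as a covariate, with an intensity trend and robust priors, at 0.01 and, as an alternative chosen after seeing the data, relative to the other strains' arrays of the same treatment and number. Leaving out one of the 6 arrays gave 0 to 1. With the replicate number as a block the count was 0, both over 36 arrays and within the 6 arrays; same-numbered acute and chronic arrays had correlations of deviations of -0.167, -0.151 and -0.453, so that the numbers do not pair them. For 2268 probe sets at an unadjusted p under 0.05 the alternatives gave 3889 without a filter, 1396 with the replicate block within the 6 arrays, 1381 with the covariate and 1003 to 3004 without one array; relative to the other strains it was 1891. The difference from the other strains had 0 calls throughout; its 1151 at the unadjusted threshold became 2437 without a filter, 2022 with the random block and 1815 with array weights, and 442 to 1505 without one array of the contrast. The cause was not tested. Of 1963 alternative values of the 79 named genes, 83 moved by more than the spread between replicates, 46 changed sign and 0 passed. The precision is that of 3 pools a group, and low probe sets near the filter are the least certain.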
